A study of Mus musculus with 6 samples.

Results

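The miR-10 genes of the mouse were examined in liver small RNA libraries, as mature miRNAs of Mir10a and Mir10b from either arm of the hairpin. They were selected by name, with their levels in these libraries already known, so levels and proportions of the paralogs are given as a description, and 4 of the 1039 miRNAs listed belonged to them, namely mmu-miR-10a-5p, mmu-miR-10a-3p, mmu-miR-10b-5p and mmu-miR-10b-3p. Livers came from wild type ICR mice, an outbred stock, labelled 30 weeks old. All 6 mice ate a high-fat diet (HFD) throughout, so the controls carried the diet as well. From week 12 of the diet on, the 3 mice of the J group received JTXK granule, a Chinese herbal formula, by gavage for 8 weeks, and the 3 mice of the M group received sterile water. One library was made per mouse, and no library from chow-fed mice was analysed here. Whole liver was sequenced, so fewer cells of a type and less miRNA per cell cannot be told apart.

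miRNAs are cut from hairpin precursors, and the strand loaded into the Argonaute protein finds its targets mainly through its seed, bases 2 to 8. The miR-10 genes lie inside Hox clusters, the arrays of transcription factor genes that set position along the body axis, and the miR-10 strands that act as guides come from the 5p arm. Mir10a belongs to the Hoxb cluster and Mir10b to the Hoxd cluster. Both are known to keep a regional pattern of expression in adult tissues, as Hox genes do.

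In GRCm38, Mir10a is at chr11:96317165-96317274 on the plus strand, outside any other annotated gene, 992 bases before Hoxb4 and 11043 bases after Hoxb5. Mir10b is at chr2:74726070-74726137 on the plus strand, in intronic sequence of Hoxd4 and Hoxd3. The mature sequences, from RefSeq (GRCm38.p6), are shown with the seed in capitals because few bases tell the paralogs apart.
mmu-miR-10a-5p: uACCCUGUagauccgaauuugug
mmu-miR-10b-5p: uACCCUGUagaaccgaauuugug
mmu-miR-10a-3p: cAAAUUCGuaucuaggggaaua
mmu-miR-10b-3p: cAGAUUCGauucuaggggaaua
Counted from 1 at the 5′ end and written from miR-10a to miR-10b, the 5p strands differ by U12A, which leaves 22 of 23 bases and the seed the same. The 3p strands differ by A3G, which is in the seed, and by U9A and A10U. Among 1679 mature mouse sequences searched, the seed of the 5p strands was found in no other miRNA. How reads that fit both 5p strands were counted is not given in the sources used here, so a share of the reads of one paralog may belong to the other.
The 5p strands of miR-99a, miR-99b and miR-100 are close relatives with another seed, and are shown for comparison. miR-99a shares an unbroken run of 10 bases with mmu-miR-10a-5p, miR-100 one of 11 bases with mmu-miR-10a-5p, and miR-99b one of 10 bases with mmu-miR-10b-5p.
mmu-miR-99a-5p: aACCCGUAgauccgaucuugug
mmu-miR-99b-5p: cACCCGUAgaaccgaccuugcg
mmu-miR-100-5p: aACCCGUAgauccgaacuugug

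The libraries held 2626353 to 4314134 miRNA reads, and expression was given as reads of a miRNA scaled to 1000000 miRNA reads of the library (RPM), so that 3 reads make 0.695 to 1.14 RPM. M group replicate 1 stood apart from the rest before any comparison of the groups. Its Pearson correlations with the other 5 libraries, on log2(RPM + 1) of the 548 miRNAs tested, were 0.931 to 0.941, against 0.973 to 0.989 among those 5. In it, 37 miRNAs (6.75% of those tested) exceeded all remaining libraries at least 4-fold, and at most 3 did so in any of the others. Its column is headed by a code starting with MX1, while the codes of the other M libraries start with MX2 and those of the J libraries with GJ2. The labels do not say what this number means, and it cannot be told apart from the mouse. Results for the miR-10 members that rest on this library are given with and without it. The marker lists are compared between the groups only with it included.

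mmu-miR-10a-5p was one of the main miRNAs of these livers and differed between the groups by less than the spread between mice. In the J mice, in the order of their replicate numbers, it stood at 24137, 29976 and 27191 RPM, and in the M mice at 23994, 25727 and 31752 RPM. The ranges of the groups overlapped almost wholly, and the highest and the lowest library were both M libraries. The J group averaged 27101 ± 2921 RPM (SD, n = 3), and the M group averaged 27158 ± 4072 RPM (SD, n = 3). By limma the log2 fold change, J minus M, was 0.0018 (standard error 0.15, 95% interval -0.35 to 0.36, adjusted p = 0.995). Its sign turned under 6 of 17 alternatives, and the interval still holds a change of 0.3, the threshold of the study, in either direction. Alone it made up 2.40% to 3.18% of a library.

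In the order of mean RPM over the 6 libraries, mmu-miR-10a-5p was at place 7 of all miRNAs listed. mmu-miR-148a-3p, with a mean of 56959 RPM, was higher than it in every library. mmu-miR-30a-5p, just above it with 37391 RPM, was higher in 5 of the 6 libraries. Below it, mmu-miR-27b-3p, with a mean of 24792 RPM, was lower in 5 of 6 libraries and mmu-let-7f-5p, with 17886 RPM, in all 6. The positions next to mmu-miR-30a-5p and mmu-miR-27b-3p were therefore not the same in every mouse. mmu-miR-10a-5p was also among the steadier of the abundant miRNAs. Its standard deviation of log2(RPM + 1) over the 6 libraries was 0.17 (place 50 from the most variable), while the median of the 56 miRNAs with a mean of at least 1000 RPM was 0.28.

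mmu-miR-10b-5p, whose sequence differs at a single base outside the seed, behaved differently across the mice. Its levels were 1375, 1272 and 1169 RPM in the J mice, again by replicate number, and 9167, 948 and 809 RPM in the M mice. M group replicate 1 was far above all others and the other M libraries were the lowest of the 6, so the J libraries lay between them. These values rest on 3233 to 24075 reads per library. The excess of M group replicate 1 over the highest other library was 6.67-fold (exact 95% interval 6.48 to 6.86, counting error only), and over the lowest it was 11.3-fold (10.9 to 11.7). Within that library it was the miRNA at place 18, and in the others it lay between places 46 and 61. By mean RPM it was at place 39 of all miRNAs listed, a position set by M group replicate 1. The neighbours by mean, mmu-miR-26b-5p and mmu-miR-5099 above it and mmu-miR-151-5p and mmu-let-7b-5p below it, were each exceeded by it in that library and were higher than it in the other 5. Its standard deviation of log2(RPM + 1) was 1.28, at place 2 of the 56 abundant miRNAs, and 0.31 without M group replicate 1, at place 19.

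**Figure D1:**
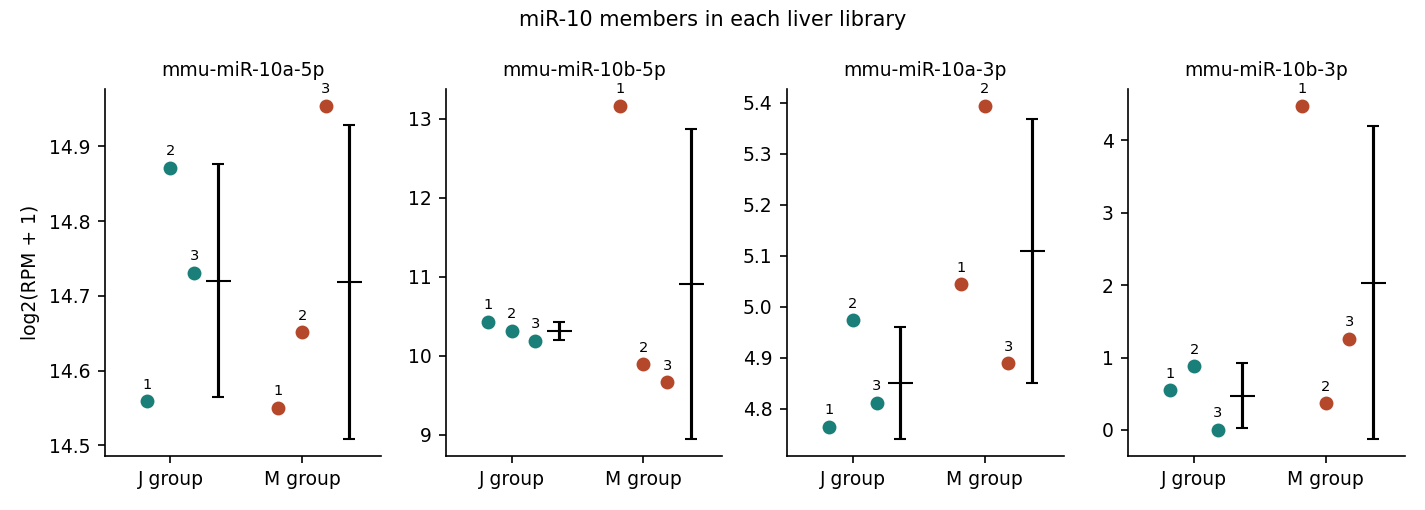
Level of each miR-10 member as log2(RPM + 1), with 1 point per library numbered by replicate, the J group on the left and the M group on the right of each panel, and the mean with its SD (n = 3) beside the points. Each panel has its own scale, and M group replicate 1 stands above all other libraries for both arms of miR-10b and for neither arm of miR-10a. Of these, mmu-miR-10b-3p was tested only through that library.

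mmu-miR-10b-5p averaged 1272 ± 103 RPM (SD, n = 3) across the J mice, and the M mice averaged 3641 ± 4786 RPM (SD, n = 3). The limma log2 fold change was -0.59 (standard error 0.85, 95% interval -2.60 to 1.41, adjusted p = 0.81), which is smaller than the spread between the M libraries. Without M group replicate 1 the direction turned. The M mean fell to 879 RPM, every J library lay above both M libraries, and the log2 fold change was 0.53 (standard error 0.19). That value passed the thresholds (absolute log2 fold change above 0.3 with an unadjusted p under 0.05), though its adjusted p by limma was 0.71. In that reduced comparison 6.55% of the 519 miRNAs tested were called, 2.31% as higher in the J group, and 7.51% had every J library above both M libraries. DESeq2 on the recovered reads of all 6 libraries gave mmu-miR-10b-5p a log2 fold change of -1.36 and no p.

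Of the 4 miR-10 members, 0 passed the thresholds in limma with all libraries, and 0 had an unadjusted p under 0.05. With edgeR 1 of 4 passed and with DESeq2 1 of 4, in both mmu-miR-10b-3p as lower in the J group. That member was tested only through M group replicate 1, which fixes this direction, so nothing is read from its calls. Over all miRNAs tested edgeR called 8.21% (4.93% lower) and DESeq2 6.57% (4.2% lower). Over all 548 miRNAs tested, limma called 5.29%, made up of 1.46% higher and 3.83% lower in the J group. After adjustment 0 remained under 0.05 with limma and 0 with edgeR, and 2 with DESeq2, neither of them a member. Groups without overlap were seen in 13.5% of the 548, and in 0 of the 4 members. The median log2 fold change over all miRNAs tested was -0.13. Relative to it, mmu-miR-10a-5p was at 0.13, mmu-miR-10a-3p at -0.13 and mmu-miR-10b-5p at -0.46. Quantile normalization moved the overall median to 0.08 and edgeR to -0.02, and relative to these medians mmu-miR-10a-5p was at -0.16 and 0.11.

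**Figure D2:**
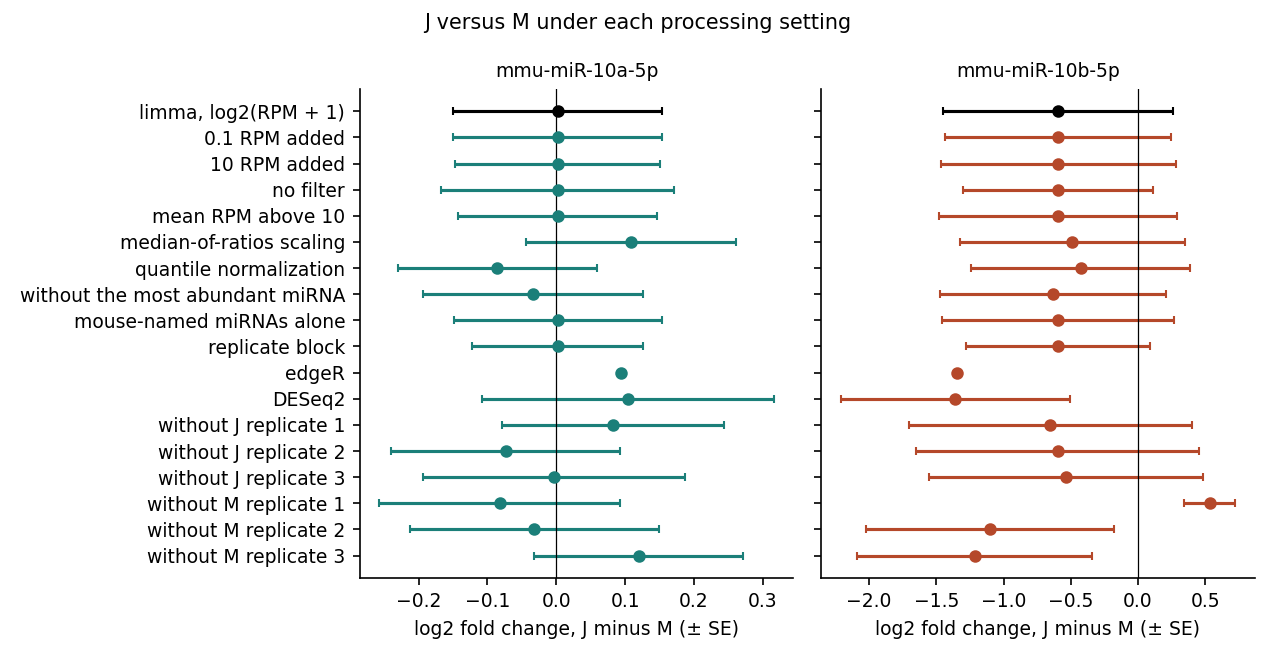
The log2 fold change, J minus M, of mmu-miR-10a-5p (left) and mmu-miR-10b-5p (right) under each setting, with 1 point per setting and its standard error as a bar where the tool gives one. mmu-miR-10a-5p stays between -0.086 and 0.12, and mmu-miR-10b-5p is below 0 except without M group replicate 1, where it is 0.53.

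The 3p arms, usually the strand that is discarded, were rare in both hairpins. mmu-miR-10a-3p reached 26.2, 30.4 and 27.1 RPM in the J mice, against 32, 41.0 and 28.6 RPM in the M mice, from 76 to 140 reads each. M group replicate 2 was the highest and the groups overlapped. Averages were 27.9 ± 2.23 RPM (SD, n = 3) for J and 33.9 ± 6.42 RPM (SD, n = 3) for M, and limma gave a log2 fold change of -0.26 (SE 0.25, 95% interval -0.85 to 0.34, adjusted p = 0.76).

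mmu-miR-10b-3p had at most 6 reads in 5 of the 6 libraries, near or below the limit of 3 reads. The J mice gave 2, 3 and 0 reads of it, by replicate number, and the M mice gave 56, 1 and 6 reads. Only M group replicate 1, at 21.3 RPM, was clearly above the limit, and the other libraries were at 0 to 1.40 RPM. It was therefore tested only because of that library, and without it the mean of neither group exceeded 1 RPM. M group replicate 1 was 15.3-fold above the next library (exact 95% interval 6.59 to 43.4 from 56 and 6 reads). The limma log2 fold change, J minus M, was -1.56 (standard error 0.99, adjusted p = 0.71). The values past the thresholds, with edgeR (-3.76, adjusted p = 0.57) and with DESeq2 (-3.92, adjusted p = 0.47) and in limma without M group replicate 2 (-2.40, adjusted p = 0.58), describe this library, which supplied 56 of the 68 reads. Over its 15 alternatives the adjusted p ranged from 0.47 to 0.83. Since mmu-miR-10b-3p was tested only through M group replicate 1, its height in that mouse adds nothing to that of mmu-miR-10b-5p. Neither arm of miR-10a was highest there.

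The 3p arm was the lesser arm of both paralogs. In miR-10b it had 0 to 6 reads in every library but M group replicate 1, against 76 to 140 reads in miR-10a. The variation of its share can therefore not be compared between the paralogs. In miR-10a the 3p arm took 0.108%, 0.101% and 0.0995% of the reads of both arms in the J mice, and 0.133%, 0.159% and 0.0901% in the M mice. The log2 ratio of the 5p to the 3p arm of miR-10a was 9.87 ± 0.067 (SD, n = 3) for J and 9.61 ± 0.41 (SD, n = 3) for M, a difference of 0.26 within the spread (two-sided exact permutation, p = 0.4). In miR-10b the 3p arm took 0.232% of the reads in M group replicate 1 (95% Wilson interval 0.179% to 0.301%) and 0.0586% in the reads of the other 5 libraries together (0.0335% to 0.102%, from 12 reads of the 3p arm). For miR-10a these were 0.133% (0.108% to 0.165%) and 0.109% (0.101% to 0.119%). The intervals of the paralogs did not overlap in M group replicate 1, and those over the other 5 libraries touched. M group replicate 3, which gave 6 of those 12 reads, had a 3p share of 0.172% (0.0790% to 0.375%) in miR-10b against 0.0901% in miR-10a, and could not be told apart from M group replicate 1 at this depth. Leaving it out as well, as was chosen after seeing the data, gave 0.0353% (0.0162% to 0.0770%) for miR-10b and 0.116% (0.106% to 0.128%) for miR-10a. In J group replicate 3, 0 of 3278 reads were of the 3p arm, which allows a share of up to 0.0915% at a limit of 3 reads (upper Wilson bound 0.117%). The log2 ratio of the arms of miR-10b was 9.83 ± 0.38 (SD, n = 3) for J and 8.87 ± 0.58 (SD, n = 3) for M, given as a description because the 3p reads are so few and the sign of the difference depended on the added RPM. Groups of 3 and 3 cannot give an exact p below 0.1. Both hairpins leaned more to their main arm than most. Of 84 hairpins with both arms listed and a summed mean of at least 100 RPM, the median share of the lesser arm was 1.2%, and miR-10a and miR-10b were at places 14 and 17 from the lowest, with 0.112% and 0.152% over all libraries. The value of miR-10b rests on M group replicate 1. Without that library, an alternative added after seeing the data, miR-10b was at place 6 of 85 hairpins with 0.0586%, and miR-10a at place 14 with 0.109%, so their order turned.

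The proportion of the paralogs also set M group replicate 1 apart. Of the reads of the 5p strands of both, miR-10b made up 5.39%, 4.07% and 4.12% in the J mice, by replicate number, and 27.6%, 3.55% and 2.49% in the M mice. There were thus 17.6 to 39.2 reads of mmu-miR-10a-5p for each read of mmu-miR-10b-5p in 5 libraries, and 2.62 in M group replicate 1. In the same library mmu-miR-10a-5p had 0.994 of the level in J group replicate 1 (exact 95% interval 0.984 to 1.004), the next lowest, and 0.756 of that in M group replicate 3, the highest. The log2 ratio of mmu-miR-10a-5p to mmu-miR-10b-5p was 4.41 ± 0.24 (SD, n = 3) for J and 3.81 ± 2.12 (SD, n = 3) for M, a difference of 0.60 (two-sided exact permutation, p = 1.0). With this number of mice the test could not have shown a difference at 0.05. Without M group replicate 1 the difference was -0.62, with every J library below both M libraries.

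**Figure D3:**
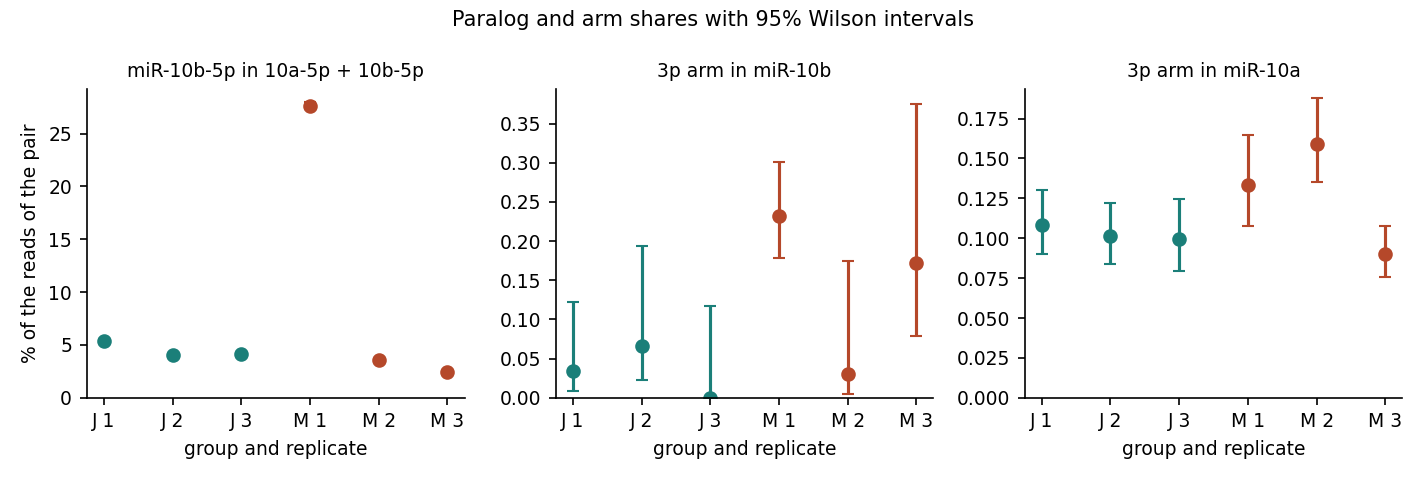
Share of mmu-miR-10b-5p in the reads of both 5p strands (left), of the 3p arm in miR-10b (middle) and of the 3p arm in miR-10a (right), in percent, for each library, with 95% Wilson intervals as bars (narrower than the points on the left). The left panel shows 27.6% in M group replicate 1 against 2.49% to 5.39% elsewhere.

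The miR-10 load as a whole varied far less between the mice than miR-10b. The 4 members summed to 25539, 31279 and 28386 RPM in the J mice, and to 33214, 26716 and 32591 RPM in the M mice. Their share of all miRNA reads was 2.84% ± 0.287 (SD, n = 3) for J and 3.08% ± 0.359 (SD, n = 3) for M, a difference of -0.24 percentage points that was -0.125 without M group replicate 1, where the M mean was 2.97%. M group replicate 1 had the highest share, 3.32%, next to 3.26% in M group replicate 3, and the groups overlapped. Among the 558 seeds of the miRNAs with a matched sequence, which held 69.8% to 75.4% of the reads, the miR-10 seed had a summed mean of 29586 RPM, and the seed of miR-99a, miR-99b and miR-100 had 104982 RPM. No rank is given to them over all seeds, since mmu-miR-122-5p, the most abundant miRNA, was not among the matched.

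The relatives were not raised in M group replicate 1 in the same way. mmu-miR-99a-5p was at 0.845 and mmu-miR-100-5p at 0.638 of their highest other library there, and mmu-miR-99b-5p at 1.04-fold. The log2 fold changes were 0.05, 0.22 and 0.07 for miR-99a, miR-100 and miR-99b (adjusted p from 0.71 to 0.89 by limma). Of 7 other mature miRNAs of Hox clusters looked for, 2 were listed, both at low levels, and the remaining 5 have no value here. mmu-miR-196b-5p, of the Hoxa cluster, spanned 0.695 to 2.14 RPM among the J mice and 0.880 to 2.10 RPM among the M mice, with a log2 fold change of -0.20 (adjusted p = 0.87 by limma). mmu-miR-615-3p, from the Hoxc cluster, had at most 2 reads in any library.

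Among the 282 tested miRNAs with a mean of at least 10 RPM, mmu-miR-10b-5p had place 15 by the ratio of M group replicate 1 to the highest other library, while mmu-miR-10a-3p and mmu-miR-10a-5p had places 157 and 162. Of the 273 other mouse miRNAs with a mean of at least 10 RPM, those most like mmu-miR-10b-5p over the 6 libraries were mmu-miR-181a-2-3p (Pearson r = 0.9995 on log2(RPM + 1)), mmu-miR-3473e (0.99), mmu-miR-296-3p (0.98), mmu-miR-20b-5p (0.98) and mmu-miR-181c-3p (0.97). Each of these was also highest in M group replicate 1, by 4.75-fold to 774-fold. All but mmu-miR-181a-2-3p reached a mean of 10 RPM only through that library, with less than 10 RPM in each of the others, so the filter itself fixed that they were highest there, and nothing is read from their r over the 6 libraries. Without that library r was still 0.997 for mmu-miR-181a-2-3p, and it was 0.77 for mmu-miR-3473e and 0.28 to 0.50 for the others. mmu-miR-181a-2-3p stood at 14.6, 13.4 and 12.8 RPM in the J mice and 69.3, 10.8 and 9.78 RPM in the M mice, in the same order of mice as mmu-miR-10b-5p.

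mmu-miR-10a-5p had other company. The most like it were mmu-miR-455-3p (r = 0.96), mmu-miR-345-3p (0.93), mmu-miR-26b-5p (0.89), mmu-miR-378a-3p (0.89) and mmu-miR-335-3p (0.89), with r of 0.90 to 0.96 without M group replicate 1. None of the 5 was highest in that library. Between the paralogs r was -0.59 over the 6 libraries and -0.53 without M group replicate 1. All of these values are descriptions of 6 libraries that share the total to which RPM is set.

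**Figure D4:**
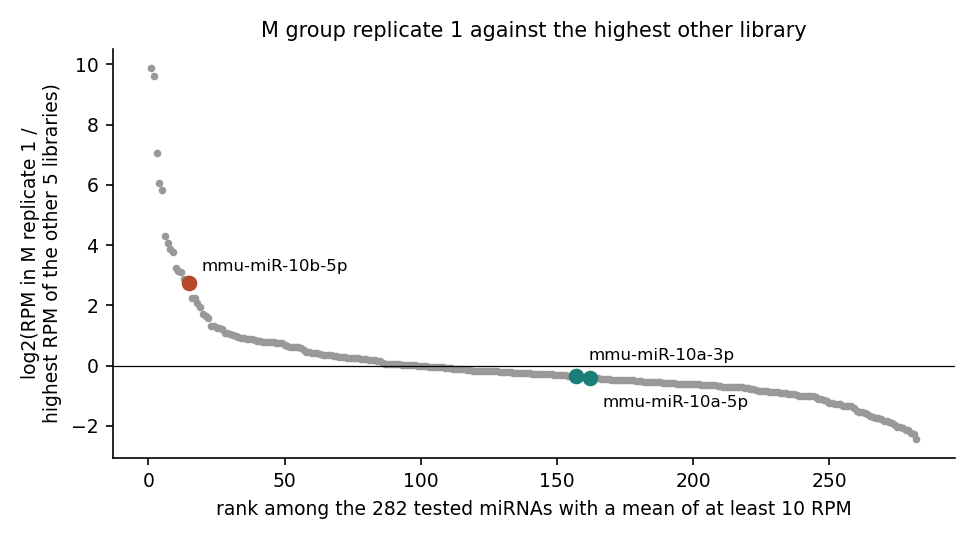
The log2 ratio of RPM in M group replicate 1 to the highest RPM of the other 5 libraries, for the 282 tested miRNAs with a mean of at least 10 RPM, in descending order, with 1 point per miRNA. mmu-miR-10b-5p is at place 15, at 6.67-fold, and both arms of miR-10a lie just below 0.

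Some markers of other cell types moved with mmu-miR-10b-5p in M group replicate 1. The blood-derived immune list (5 of 5 miRNAs listed) summed to 4778 RPM there, and to 761 to 1102 RPM in the J libraries and 1376 and 1456 RPM in the other M libraries. Within it mmu-miR-142a-3p, a miRNA of blood cell lineages, was 9.43-fold and mmu-miR-142a-5p 3.86-fold above the highest other library. mmu-miR-223-3p, a myeloid miRNA, was not raised there, with 25.1 RPM against 15.8 to 38.2 RPM in the others. mmu-miR-342-3p was at 0.833 of the highest other library, and mmu-miR-150-5p was 1.22-fold above it. Most of the sum in M group replicate 1 was mmu-miR-142a-5p, with 3709 RPM. The epithelial list (5 of 5) summed to 4298 RPM in M group replicate 1 and 950 to 2379 RPM elsewhere. In it mmu-miR-200a-3p was 1.86-fold, mmu-miR-200b-3p 1.77-fold, mmu-miR-429-3p 1.52-fold and mmu-miR-200c-3p 1.14-fold above the highest other library, and mmu-miR-141-3p at 0.940 of it. The muscle list (3 of 3) summed to 22.5 and 2.50 to 5.10 RPM. There mmu-miR-1a-3p was 4.20-fold and mmu-miR-133a-3p 2.81-fold above the highest other library, and mmu-miR-206-3p had 0 RPM in M group replicate 1. The stromal list (4 of 5) summed to 25242 RPM there and 12582 to 20214 RPM elsewhere, with 2 of its 4 miRNAs highest in M group replicate 1. Of these, mmu-miR-143-3p was 1.54-fold and mmu-miR-199a-5p 1.03-fold above the highest other library, while mmu-miR-145a-5p was at 0.779 and mmu-miR-214-3p at 0.892 of it. The part of these cells in the miR-10b values was not tested.
The hepatocyte list (5 of 5) summed to 392287 RPM in M group replicate 1 and 391597 to 450543 RPM elsewhere, so the markers of the labelled tissue were present. The endothelial list (1 of 2) stood at 4761 and 4166 to 6718 RPM, the red blood cell list (2 of 3) at 4048 and 2534 to 9724 RPM, and the pancreas list (4 of 4) at 1.14 and 3.63 to 25.8 RPM. Between the groups, with M group replicate 1 included, limma called 3 of 4 stromal and 1 of 5 immune miRNAs lower in the J group. The list medians were -0.51 and -1.12 against -0.13 over all miRNAs tested, of which 3.83% were called lower. In that library mmu-miR-142a-5p of the immune list stood at 3709 RPM. The other M libraries had 683 and 961 RPM of it, and the J libraries 525 to 761 RPM. edgeR and DESeq2 each called 1 stromal and 2 immune miRNAs lower, beside 4.93% and 4.2% of all miRNAs. edgeR called 1 of 5 hepatocyte miRNAs higher, beside 3.28% of all, and DESeq2 called 0 of 5 higher, beside 2.37%. The medians of the hepatocyte, endothelial and red blood cell lists were -0.0042, 0.09 and 0.03. Those of the epithelial, pancreas and muscle lists were -0.68, -0.80 and -0.68, from 5, 2 and 2 miRNAs tested, the other pancreas and muscle miRNAs being near 0. None of these calls and medians is given without M group replicate 1.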

How the data were processed

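Small RNA libraries were prepared from liver total RNA (NEBNext Multiplex Small RNA Library Prep Set) and sequenced on an Illumina HiSeq. The authors cleaned the raw data, assigned unique reads by Rfam and miRBase, and deposited RPM, each miRNA's reads scaled to 1000000 miRNA reads, for every library separately. The submitters' processing notes name mm9, while positions here are from GENCODE M21 and RefSeq (GRCm38). The aligner is not given in the sources used here. Every value was a whole multiple of 1 read within 0.02 reads (100% of values), so whole reads were recovered. Samples were grouped by title.

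J minus M was estimated by limma 3.58.1 (R 4.3.3, with a trend, two-sided) from log2(RPM + 1) of 548 miRNAs whose mean exceeded 1 RPM in a group, with p adjusted by Benjamini-Hochberg over them. The study's thresholds were used (absolute log2 fold change above 0.3, unadjusted p under 0.05), since its methods name no test for the sequencing. edgeR 4.0.16 and DESeq2 1.42.0 ran on recovered reads as alternatives, beside other scalings, filters and added amounts, a replicate block, and each library left out. Ratios were tested by exact permutation over 10 splits. Wilson and exact intervals cover counting error only. The limma, edgeR and DESeq2 fits were tested on simulated data. Named were the members, their relatives and other Hox miRNAs, the neighbours in level, the 5 most like each 5p member, and the marker lists. The members and lists were chosen with earlier results of these data known. Whether replicate numbers pair mice is not stated. The p-values set a difference against the spread between these mice, which limma estimates partly from all miRNAs tested. Of the 762 mouse-named miRNAs, 653 matched a RefSeq sequence.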

Additional observations from a re-analysis of the deposited data

How the results depend on the processing

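mmu-miR-10a-5p did not pass the thresholds under any of 17 alternatives, and its log2 fold change turned to -0.086 with quantile normalization and -0.034 without the most abundant miRNA, and ranged from -0.082 to 0.12 with a library left out. mmu-miR-10a-3p kept its direction and did not pass under 17 of 17 (-0.37 to -0.12 with a library left out), with -0.012 under quantile normalization and -0.16 under median-of-ratios scaling. mmu-miR-10b-5p kept its direction under 16 of 17 and ranged from -1.22 to 0.53 with a library left out, the highest without M group replicate 1. For mmu-miR-10b-3p the values were -3.76 with edgeR, -3.92 with DESeq2 and -2.40 to -1.32 with a library left out, and -2.63 with 0.1 RPM and -0.57 with 10 RPM added, and it was not tested without M group replicate 1 or when means above 10 RPM were required. The difference of the log2 ratio of the paralogs ranged from -0.62 to 1.34 with a library left out. That of the arms of miR-10b was 2.04 with 0.1 RPM added and -0.029 with 10 RPM, and 0.73 to 1.29 with a library left out, so it is set by the added amount. The difference in the share of miRNA reads taken by the members ranged from -0.45 (without M group replicate 2) to -0.10 (without J group replicate 1) percentage points. The count of 29 miRNAs past the thresholds rose to 45 with edgeR (18 higher, 27 lower) and ranged from 21 (without J group replicate 2) to 46 (without M group replicate 2). Median-of-ratios scaling gave 17 higher and 13 lower, and quantile normalization 20 and 11. The rest of the counts were within 1.5 times. The excess of mmu-miR-10b-5p in M group replicate 1 was 5.43-fold with median-of-ratios scaling and 6.88-fold without the most abundant miRNA. These alternatives, and those of mmu-miR-10a-3p and of the arms of miR-10a (0.08 to 0.49 with a library left out), were chosen after seeing the data. A replicate block gave mmu-miR-10b-5p -0.59 (standard error 0.68) and 27 miRNAs past the thresholds. Deviations of same-numbered mice correlated at 0.045, 0.058 and -0.0059, and those of mice with different numbers at -0.24 to 0.16. These values show no sign of pairing, but with so few mice they cannot exclude it. The block changed no call of a member. Apart from these, the cause of the changes was not tested.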
